A study of Homo sapiens with 9 samples.

Results

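The immediate early and AP-1 factors examined here are 10 genes, chosen by name among the 58735 genes of the count table: JUN, JUNB and JUND of the JUN family, FOS, FOSL1 and FOSL2 of the FOS family, EGR1, IER2, IER3 and MYC. All 10 were found in the files by their symbol. These genes, and the related lists below, were chosen with earlier results of these data known. Their counts beside the shares of all genes are therefore descriptions. The 10 genes were measured by RNA sequencing in 9 libraries of Huh-7 cells, a human hepatoma line that makes and secretes apoB-containing lipoproteins. The 3 groups, with 3 libraries labelled as biological replicates each, are wild-type Huh-7 control cells, Ako-3 cells deficient in APOB, which encodes the structural protein apoB, and Mko-3 cells deficient in MTTP, which encodes the transfer protein that loads lipid onto apoB. Each knockout is a single clone made with CRISPR/Cas9 in Huh-7 cells, so that the effect of a gene's loss and a difference between clones cannot be told apart. Cells were grown in DMEM with fetal bovine serum to near confluence. The study describes PBS washes and an overnight step without serum for its analysis of secreted proteins. Its RNA sequencing methods do not mention such a step, so the serum state of these libraries is not certain.

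Immediate early genes are transcribed within minutes of a signal, without the need for new protein, and many of them encode transcription factors. JUN proteins pair with each other or with FOS proteins to form AP-1, a basic leucine zipper dimer that binds the TPA response element and related sites. FOS proteins do not form stable dimers with themselves and depend on a JUN partner. In liver, JUN is known for its roles in hepatocyte proliferation, regeneration and tumour formation, and MYC, which binds E-boxes with its partner MAX, for the control of growth and ribosome production.

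The labels held in the data: APOB fell in Ako-3 cells (log2 fold change -1.36, edgeR adjusted p = 7.1e-05) and had a log2 fold change of -0.05 in Mko-3 cells, and MTTP fell by 2.88 on the log2 scale in Mko-3 cells (edgeR adjusted p = 9.4e-19). The hepatoma identity was also seen, as 10 of 10 hepatocyte and hepatoma markers reached a level of at least 1 CPM (counts scaled to library size) in each group, with a summed level of 18700 to 19073 CPM in control, 22909 to 24451 CPM in Ako-3 and 18672 to 19691 CPM in Mko-3 libraries. Fibroblast markers summed to between 4.45 and 9.16 CPM. KRT7, KDR and CD68, which mark cholangiocytes, endothelium and macrophages, had no count in any library, but other genes of their lists were expressed. In each group 3 of 4 cholangiocyte, 2 of 4 endothelial and 2 of 5 leukocyte markers reached a mean of at least 1 CPM. The summed level of the cholangiocyte list (3 of 4 with a count) was 417 to 461 CPM in control, 394 to 408 CPM in Ako-3 and 517 to 527 CPM in Mko-3 libraries, and that of the endothelial list (3 of 4) was 75.8 to 85.4, 105 to 114 and 55.3 to 60.9 CPM. The leukocyte list (2 of 5 with a count in control and 4 of 5 in each knockout) summed to 266 to 288, 333 to 363 and 335 to 364 CPM. Library totals ran from 14638727 to 20179760 counts. Mitochondrial transcripts took 7.28% ± 0.19 of the counts in Ako-3 libraries, 5.78% ± 0.34 in control and 5.80% ± 0.04 in Mko-3 libraries (SD, n = 3), and the part of these differences in the results was not tested.

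The promoters of the 3 JUN genes and of FOS and EGR1 are shown as a description. Any link between their motifs and the changes reported below was not tested. RefSeq (GRCh38.p14) gave a promoter window of 300 bases, 250 before and 50 after the start site, for 7 of the 10 genes. The other 3 are FOSL1, IER3 and MYC. The 120 bases that end at the start site are printed 5′ to 3′ on the coding strand, and capitals mark the letters of a motif match.
JUN, chr1:58784048-58784167, minus strand: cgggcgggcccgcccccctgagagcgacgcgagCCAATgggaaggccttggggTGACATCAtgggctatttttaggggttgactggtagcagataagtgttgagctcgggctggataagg
JUNB, chr19:12791366-12791485, plus strand: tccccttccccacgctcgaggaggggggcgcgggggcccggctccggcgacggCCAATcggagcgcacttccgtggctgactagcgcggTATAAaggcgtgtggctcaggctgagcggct
JUND, chr19:18281623-18281742, minus strand: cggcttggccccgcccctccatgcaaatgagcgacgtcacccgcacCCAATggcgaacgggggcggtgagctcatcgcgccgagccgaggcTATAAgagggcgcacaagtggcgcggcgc
FOS, chr14:75278708-75278827, plus strand: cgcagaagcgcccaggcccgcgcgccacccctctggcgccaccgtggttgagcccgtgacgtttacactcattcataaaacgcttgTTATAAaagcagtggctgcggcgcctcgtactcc
EGR1, chr5:138465359-138465478, plus strand: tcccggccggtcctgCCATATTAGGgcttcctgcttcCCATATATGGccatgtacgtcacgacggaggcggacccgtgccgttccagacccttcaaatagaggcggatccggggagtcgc

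Positions in these windows are counted from the start site, with upstream bases negative, and each motif was sought on both strands. All 3 JUN promoters held CCAAT, at -87 in JUN, -67 in JUNB and -74 in JUND, as did 34.6% of the 35116 promoters in the table. The AP-1-like element TGACATCA, one base away from the cAMP response element, was found at -67 in JUN and in 2.61% of all promoters. Its symmetrical relative TGACGTCA was found in JUND at -200, upstream of the printed bases, and in 1.85% of all promoters. The TPA response element TGACTCA was present in 4.95% of all promoters and in 1 of the 7 windows, that of FOSL2, at position 4 after the start. Both matches in EGR1 are CArG boxes, the binding site of the serum response factor, at -105 and -83. A CArG box was found in 1.29% of all promoters. TATAA was found in JUNB, JUND and FOS, against 20.4% of all promoters, and in FOS the matches on the 2 strands overlap as TTATAA. None of the 7 windows held the E-box CACGTG, which 7.26% of all promoters hold, and IER2 held none of these motifs. The gene span of JUN in the deposited annotation reaches base 58784327, so the printed JUN window lies inside that span. The span of FOSL2 begins at 28392448, so the 120 bases before its start site here, which begin at 28392738, also lie inside it. The span of FOS begins at 75278774, which is within the printed FOS window. A match is a description of the letters, and binding was not measured.

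In the deposited annotation (hg38), JUN (ENSG00000177606) lies on chromosome 1 at 58780788 to 58784327, FOS on chromosome 14 at 75278774 to 75282230, FOSL2 on chromosome 2 at 28392448 to 28417312, FOSL1 on chromosome 11 at 65892049 to 65900573, EGR1 on chromosome 5 at 138465490 to 138469315 and IER3 on chromosome 6 at 30743199 to 30744554. JUNB at 12791496 to 12793315, JUND at 18279760 to 18281622 and IER2 at 13150415 to 13154908 lie on chromosome 19, and MYC lies on chromosome 8. In GENCODE release 44, 3 of the 10 main transcripts, those of JUN, JUNB and JUND, have a single exon, compared with 4.28% of 18780 main transcripts. The pentamer ATTTA, the core of AU-rich elements that shorten the life of a transcript, was present in the 3′ untranslated region of 9 of the 10 genes and of 68.3% of all. Its density was highest in IER3, at 8.14 per kilobase, and FOS, at 6.20 per kilobase, where the median of all transcripts was 1.55 per kilobase. JUNB had 4, MYC 3.01, JUN 2.34, FOSL2 1.85, JUND 1.34, FOSL1 1.19 and EGR1 0.82 per kilobase, and IER2 had no ATTTA.

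To compare levels between genes, the deposited FPKM, which are scaled by gene length, were used. In control Huh-7 cells JUND was the highest member at 196 ± 28.7 FPKM (mean ± SD, n = 3), followed by JUN at 108 ± 6.38 FPKM and IER3 at 39.1 ± 4.22 FPKM. JUND ranked at position 123 and JUN at position 278 among all genes by mean FPKM, within the top few percent of the 12692 genes at a mean above 1 FPKM. JUNB, at 31.5 ± 3.05 FPKM, and MYC, at 25.95 ± 3.41 FPKM, had overlapping libraries, as did FOSL2, at 11.9 ± 1.23 FPKM, and IER2, at 11.2 ± 0.546 FPKM. Below these came FOS at 2.07 ± 0.197 FPKM and EGR1 at 0.754 ± 0.143 FPKM, 2 of the best-known serum-induced genes. FOSL1, which encodes FRA-1, was close to the limit of detection, with 1 count in each control library.

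The order was nearly the same in the knockouts. JUND, JUN, IER3, JUNB and MYC kept places 1 to 5 by mean FPKM in all 3 groups. IER2 and FOSL2 exchanged places, with IER2 above FOSL2 in Ako-3 cells (10.2 ± 1.37 and 6.69 ± 0.631 FPKM) and in Mko-3 cells (10.8 ± 0.419 and 9.14 ± 0.456 FPKM), in both cases with separate library ranges. JUN fell from position 278 among all genes in control cells to 984 in Ako-3 and 645 in Mko-3 cells, while JUND went from 123 to 221 and 195. FOS stayed at place 8, EGR1 at place 9 and FOSL1 at place 10 in each group.

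In Ako-3 cells the JUN genes, FOSL2, IER3 and MYC were lower than in control cells, and FOS, IER2 and EGR1 did not pass the test. Of the 9 members tested, 3 passed both thresholds, a log2 fold change of 1 or more in either direction and an adjusted p of at most 0.05. These were JUN, JUNB and MYC, all lower. Over all 15787 genes tested, 8.52% passed both thresholds, with 5.0% lower and 3.52% higher. A further 3 members, JUND, FOSL2 and IER3, passed the adjusted p alone, which made 6 lower and 0 higher, where 49.9% of all genes passed that criterion, 24.4% lower and 25.5% higher. The 3 Ako-3 libraries lay below all 3 control libraries for the same 6 genes, as they did for 26.6% of all genes tested, and for no member above them, against 31.0% of all genes. The median log2 fold change of the 9 members was -0.72, and that of all genes was -0.01.

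In Mko-3 cells the JUN genes, FOSL2 and MYC were also lower than in control cells, and IER3 was higher. No member passed both thresholds in edgeR, where 11.0% of all 15745 genes tested did, 7.22% lower and 3.82% higher. With the adjusted p alone, 5 members were lower (JUN, JUNB, JUND, FOSL2 and MYC) and 1 was higher (IER3), against 27.1% and 26.9% of all genes, 54.0% in all. The same 6 members passed an adjusted p of 0.05 in DESeq2, which called 0 at both thresholds as well, and 6 had an unadjusted p under 0.05 in edgeR. Mko-3 libraries lay entirely below the control libraries for 4 members and above them for 1, compared with 28.3% and 32.4% of all genes. Both knockouts were compared with the same control libraries, so their changes are not independent of each other. RNA of whole cultures was measured, so fewer cells with a transcript and less of it per cell cannot be told apart.

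**Figure D1:**
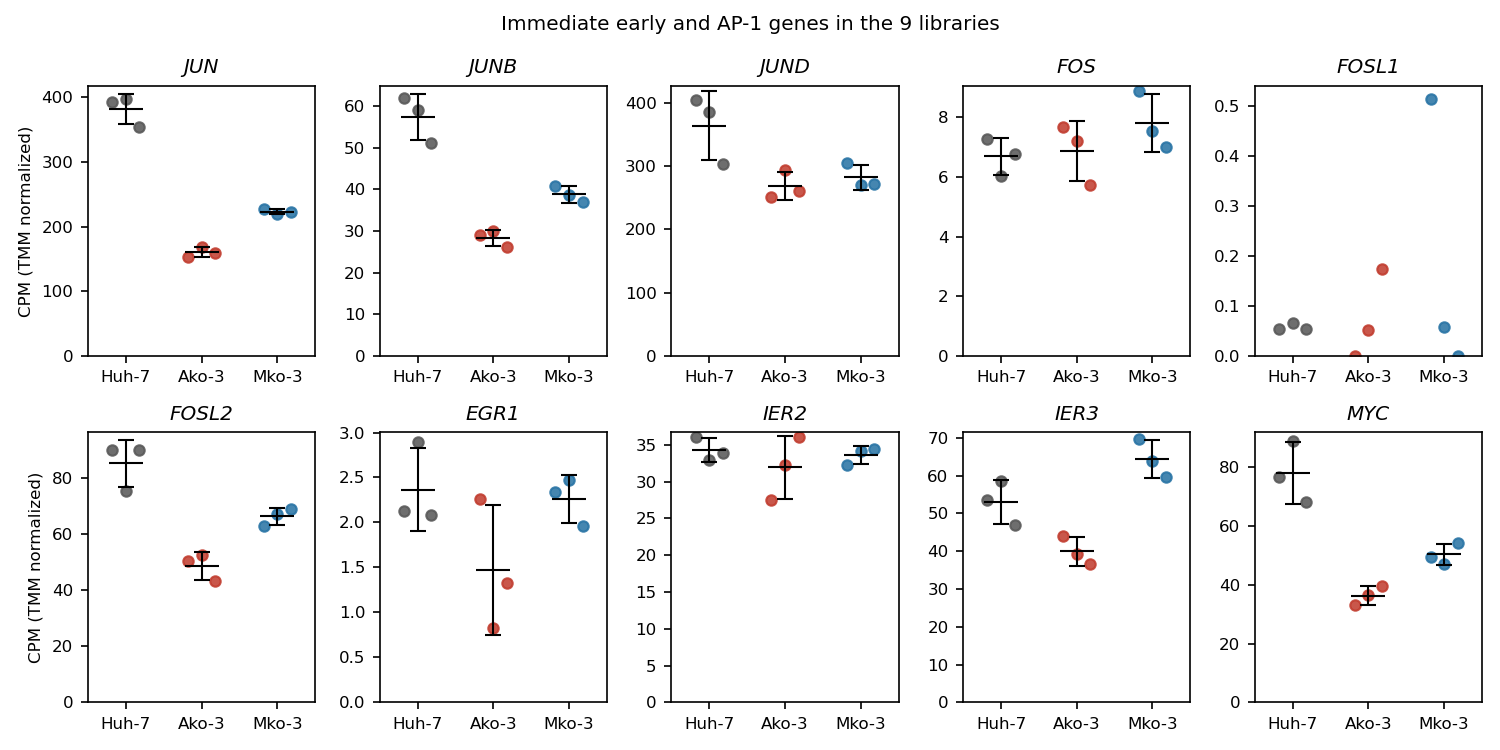
Level of each of the 10 genes in CPM (TMM normalized, vertical axis from 0, a separate scale for each gene) in the 3 control Huh-7, 3 Ako-3 and 3 Mko-3 libraries; points are libraries and bars the mean ± SD (n = 3), except for FOSL1, where points alone are drawn. JUN, JUNB, FOSL2 and MYC were highest in control, intermediate in Mko-3 and lowest in Ako-3 libraries without overlap.

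JUN, the founding member of the family and the partner with the strongest transcriptional activity, had 393, 397 and 355 CPM in the control libraries, 153, 169 and 159.9 CPM in Ako-3 and 228, 219 and 223 CPM in Mko-3 libraries. Every Ako-3 library was below every Mko-3 library, and these were below every control library. The level in Ako-3 cells was 58.7% lower than in control cells (log2 fold change -1.27, SE 0.06, edgeR adjusted p = 3.0e-12). In Mko-3 cells it was 42.8% lower (log2 fold change -0.81, SE 0.06, edgeR adjusted p = 5.9e-10). JUN stood among the lower genes of the whole table, with 445 of 15787 genes having a more negative log2 fold change in Ako-3 cells and 1684 of 15745 in Mko-3 cells.

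JUNB, a JUN protein that often restrains the action of JUN, had 61.96, 59.0 and 51.1 CPM in control libraries, 29.0, 30.0 and 26.2 CPM in Ako-3 and 40.8, 38.7 and 36.9 CPM in Mko-3 libraries. The 3 groups did not overlap and had the same order as for JUN. It was 51.4% lower in Ako-3 cells (log2 fold change -1.04, SE 0.09, edgeR adjusted p = 5.7e-09) and 33.9% lower in Mko-3 cells (log2 fold change -0.60, SE 0.08, edgeR adjusted p = 3.2e-06). The fold change in Ako-3 cells lies at the threshold and was -0.98 without control replicate 1, -0.99 without Ako-3 replicate 3 and -0.99 with limma on log2(FPKM + 1). All 1820 bases of JUNB lie inside HOOK2 on the opposite strand, which had 252 to 470 counts per library, and since the strand setting of the counting is not given in the sources used here, reads of the pair may not be fully separated.

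JUND, the JUN protein that is made steadily in resting cells, had 404, 386 and 303 CPM in control libraries, 252, 293 and 260.4 CPM in Ako-3 and 305, 271 and 271 CPM in Mko-3 libraries. Control replicate 3 lay well below the other 2 control libraries, and the highest Mko-3 library was above it. JUND was 27.7% lower in Ako-3 cells (log2 fold change -0.47, SE 0.09, edgeR adjusted p = 0.00058) and 24.2% lower in Mko-3 cells (log2 fold change -0.40, SE 0.09, edgeR adjusted p = 0.0019). Its 95% confidence interval in Ako-3 cells, -0.66 to -0.28, did not reach that of JUN, -1.41 to -1.14.

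The make-up of the JUN family transcripts differed between the groups. Of the summed FPKM of JUN, JUNB and JUND, JUN held 32.3% ± 1.92 in control cells, 22.2% ± 0.573 in Ako-3 and 26.8% ± 0.938 in Mko-3 cells (SD, n = 3). JUND held 58.2% ± 2.09, 70.2% ± 0.768 and 64.2% ± 0.995. The libraries of the 3 groups did not overlap in either share. JUNB held 9.43% ± 0.220 in control, 7.62% ± 0.515 in Ako-3 and 9.03% ± 0.244 in Mko-3 cells, and its Mko-3 and control libraries overlapped. JUND exceeded JUN by a factor of 1.81 ± 0.169 in control, 3.17 ± 0.112 in Ako-3 and 2.40 ± 0.123 in Mko-3 cells. With 3 libraries against 3, a two-sided exact permutation test cannot give a p below 0.1, which is the value for each of these differences between groups that did not overlap.

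FOSL2, which encodes FRA-2, a FOS protein without the strong activation domain of FOS, had 90.2, 75.5 and 90.2 CPM in control libraries, 50.4, 52.4 and 43.2 CPM in Ako-3 and 63.0, 67.2 and 69.0 CPM in Mko-3 libraries. Control libraries were highest and Ako-3 libraries lowest, without overlap. FOSL2 was 44.1% lower in Ako-3 cells (log2 fold change -0.84, SE 0.09, edgeR adjusted p = 1.4e-07) and 24.1% lower in Mko-3 cells (log2 fold change -0.40, SE 0.08, edgeR adjusted p = 0.00021).

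FOS, the classical partner of JUN, was low in all groups, with 7.27, 6.05 and 6.79 CPM in control, 7.68, 7.22 and 5.74 CPM in Ako-3 and 8.90, 7.54 and 7.005 CPM in Mko-3 libraries. The 3 groups overlapped. Its log2 fold change was 0.00 in Ako-3 cells (95% confidence interval -0.33 to 0.33, edgeR adjusted p = 0.98) and 0.19 in Mko-3 cells (-0.13 to 0.50, edgeR adjusted p = 0.32), so that a fall of the size seen for JUN lay outside both intervals. FOSL1 had 1, 1 and 1 counts in control, 0, 1 and 3 in Ako-3 and 9, 1 and 0 in Mko-3 libraries. It did not pass the filter on low counts, and no fold change is given.

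The FOS family sum used here holds FOS, FOSL1 and FOSL2. It leaves out FOSB, at a mean of 0.279 FPKM in control, 0.183 in Ako-3 and 0.119 in Mko-3 cells. FOSL2 supplied most of the summed FPKM in every library, at 84.99% ± 0.493 in control, 75.9% ± 0.933 in Ako-3 and 78.7% ± 3.77 in Mko-3 cells. The share of FOS was 14.8% ± 0.474, 23.6% ± 1.41 and 20.5% ± 2.53, with control libraries below all knockout libraries and the knockouts overlapping. The FOS family sum was 14.02 ± 1.41 FPKM in control, 8.82 ± 0.873 FPKM in Ako-3 and 11.6 ± 0.0910 FPKM in Mko-3 cells. The JUN family sum was 335 ± 38.0, 202 ± 12.3 and 233 ± 12.2 FPKM. JUN family transcript therefore exceeded FOS family transcript by a factor of 24.1 ± 4.26 in control, 23.0 ± 2.31 in Ako-3 and 20.02 ± 1.03 in Mko-3 cells, with overlapping libraries.

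**Figure D2:**
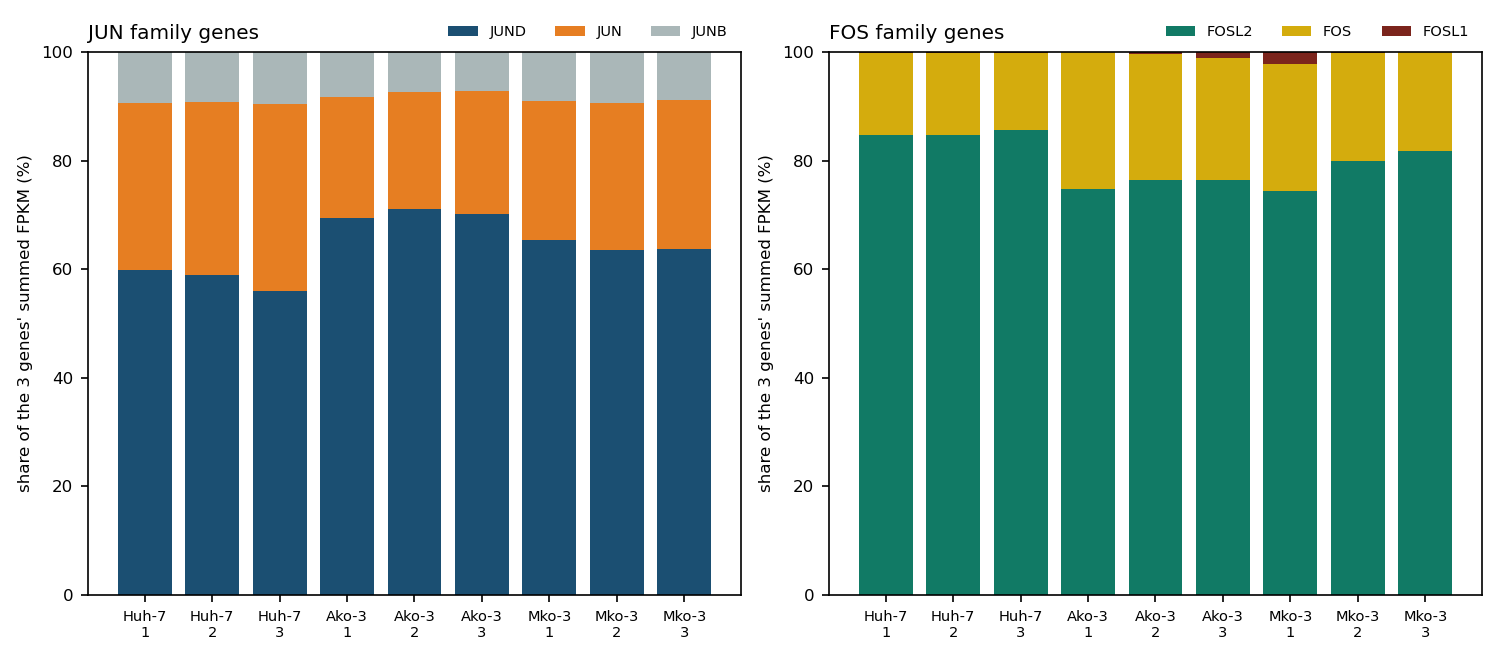
Share of each gene in the summed FPKM of its family (vertical axis, percent) in each of the 9 libraries (horizontal axis, group and replicate number), for JUN, JUNB and JUND on the left and FOS, FOSL1 and FOSL2 on the right. The JUN share was highest in the 3 control libraries (mean 32.3%) and lowest in the 3 Ako-3 libraries (mean 22.2%), and the FOS share was lowest in the control libraries (mean 14.8%).

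EGR1, a zinc finger factor induced by serum through its CArG boxes, had 40, 44 and 38 counts in control, 37, 16 and 23 counts in Ako-3 and 41, 43 and 30 counts in Mko-3 libraries, which is 2.12, 2.89 and 2.08 CPM, 2.26, 0.825 and 1.33 CPM, and 2.34, 2.48 and 1.96 CPM. Ako-3 replicate 1 lay within the control range and the other 2 Ako-3 libraries below it. The log2 fold change was -0.72 in Ako-3 cells (95% confidence interval -1.39 to -0.05, edgeR adjusted p = 0.068) and -0.09 in Mko-3 cells (-0.60 to 0.43, edgeR adjusted p = 0.79). The value in Ako-3 cells depends on single libraries: without Ako-3 replicate 1 the log2 fold change was -1.15 (edgeR adjusted p = 0.0099), and without Ako-3 replicate 2 it was -0.41 (edgeR adjusted p = 0.32). With all 9 libraries in one fit the log2 fold change was -0.71, below the fold threshold, with an edgeR adjusted p of 0.047. The call by the adjusted p therefore differed between the fits.

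IER2, a nuclear protein of the immediate early response, had 36.1, 32.9 and 33.9 CPM in control libraries, 27.6, 32.2 and 36.1 CPM in Ako-3 and 32.2, 34.1 and 34.5 CPM in Mko-3 libraries. The groups overlapped, with log2 fold changes of -0.13 in Ako-3 cells (95% confidence interval -0.33 to 0.07, edgeR adjusted p = 0.27) and -0.07 in Mko-3 cells (-0.24 to 0.11, edgeR adjusted p = 0.53). IER3, which encodes a small protein that modulates survival and ERK signalling, had 53.6, 58.5 and 46.8 CPM in control, 44.1, 39.3 and 36.5 CPM in Ako-3 and 69.7, 63.8 and 59.6 CPM in Mko-3 libraries. Its Ako-3 libraries were all below, and its Mko-3 libraries all above, the control libraries. The log2 fold change was -0.43 in Ako-3 cells (SE 0.09, edgeR adjusted p = 0.00043) and 0.25 in Mko-3 cells (SE 0.08, edgeR adjusted p = 0.016). The rise in Mko-3 cells did not pass without control replicate 3 or without Mko-3 replicate 1, with an edgeR adjusted p of up to 0.11.

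MYC had 76.7, 89.0 and 68.0 CPM in control libraries, 33.1, 36.5 and 39.4 CPM in Ako-3 and 49.5, 47.2 and 54.3 CPM in Mko-3 libraries. The 3 groups did not overlap, and control libraries were highest. MYC was 54.1% lower in Ako-3 cells (log2 fold change -1.12, SE 0.09, edgeR adjusted p = 5.9e-09) and 36.8% lower in Mko-3 cells (log2 fold change -0.66, SE 0.09, edgeR adjusted p = 2.2e-06).

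**Figure D3:**
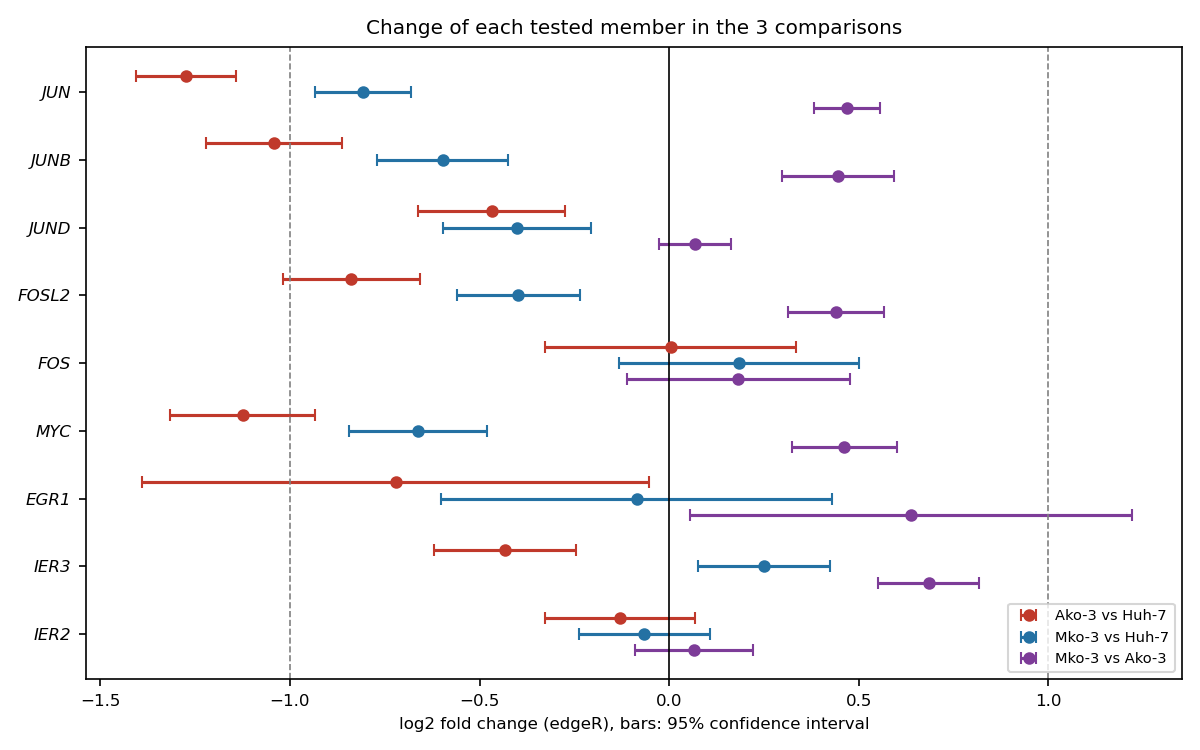
Log2 fold change of the 9 tested genes (horizontal axis, edgeR, bars show the 95% confidence interval) for Ako-3 against control, Mko-3 against control and Mko-3 against Ako-3 cells; dashed lines mark the threshold of 1 in each direction. Only JUN, JUNB and MYC in Ako-3 cells lie past it, FOS lies near 0 against control, and IER3 has opposite signs in the clones.

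The clones were also compared directly, without the control libraries. None of the 9 tested members passed both thresholds in edgeR, where 5.73% of 15528 genes did (3.47% lower and 2.26% higher in Mko-3 cells), and 5 passed the adjusted p alone, as did 41.6% of all genes. All 5 were higher in Mko-3 than in Ako-3 cells, with Mko-3 libraries entirely above Ako-3 libraries, where 21.1% of all genes were higher and 20.6% lower by adjusted p, and 26.1% were higher and 23.6% lower without overlap. DESeq2 also gave 5 at an adjusted p of 0.05 and 0 at both thresholds, and 6 members had an unadjusted p under 0.05 in edgeR. The log2 difference, Mko-3 minus Ako-3, was 0.47 for JUN (SE 0.04, edgeR adjusted p = 6.7e-15), 0.44 for JUNB (SE 0.07, edgeR adjusted p = 7.1e-07) and 0.44 for FOSL2 (SE 0.06, edgeR adjusted p = 1.7e-08). It was 0.46 for MYC (SE 0.07, edgeR adjusted p = 5.7e-08) and 0.69 for IER3 (SE 0.07, edgeR adjusted p = 3.9e-14). JUND differed by 0.07 (95% confidence interval -0.03 to 0.16, edgeR adjusted p = 0.25), and without Ako-3 replicate 2, its highest Ako-3 library, by 0.13 (edgeR adjusted p = 0.029). FOS differed by 0.18 (-0.11 to 0.48, edgeR adjusted p = 0.34) and IER2 by 0.07 (-0.09 to 0.22, edgeR adjusted p = 0.53). For EGR1 the difference was 0.64 (edgeR adjusted p = 0.072), and it was 1.08 without Ako-3 replicate 1 (edgeR adjusted p = 0.0072) and 0.33 without Ako-3 replicate 2 (edgeR adjusted p = 0.42).

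The genes whose pattern over the 9 libraries was most like that of a member were found by Pearson's r of log2 CPM among genes with a mean of at least 10 CPM. Because the 9 libraries form 3 groups, such an r largely follows the group means, and it is given as a description. ATF3, an AP-1 partner induced by stress, was closest to JUN (r = 0.995), followed by SLC3A2, an amino acid transporter subunit (r = 0.993). JUNB was closest to MAFF (r = 0.991) and DUSP8 (r = 0.991), and FOSL2 to STC2 (r = 0.988) and NUDT4 (r = 0.986). MYC was closest to PIM3 (r = 0.981) and to JUN itself (r = 0.978). JUN and JUNB had an r of 0.985. For JUN, 506 of 9823 genes reached an r of 0.9, for JUNB 436, for FOSL2 371, for MYC 260, for IER3 103 and for JUND 52, whereas 0 of 9824 did so for FOS and 2 for EGR1.

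For the remaining members, JUND was closest to PXDC1 (r = 0.982) and GCH1 (r = 0.970), and IER3 to SAV1 (r = 0.974) and EEPD1 (r = 0.973). EGR1 was closest to GMEB1 (r = 0.917) and NAA35 (r = 0.908), IER2 to RDH14 (r = 0.854) and SNX12 (r = 0.824), and FOS to SLC35G1 (r = 0.847) and FEZ2 (r = 0.840). For FOSL1 the closest were MZT2B (r = 0.844) and MRTFA (r = 0.835), values that rest on a few counts. The r of FOS with JUN was -0.15 and that of FOS with JUNB was 0.00.

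Several of the other bZIP factors that can enter AP-1 or related dimers were lower in the knockouts. Of 14 such genes, all tested, 4 passed both thresholds in Ako-3 cells and all were lower, and 8 were lower and 0 higher by the adjusted p alone, where 5.0% of all genes were lower past both thresholds and 24.4% lower and 25.5% higher by the adjusted p. In Mko-3 cells 5 passed both thresholds, all lower, and 11 were lower and 0 higher by the adjusted p alone, where the shares of all genes were 7.22%, 27.1% and 26.9%. The remaining 6 in Ako-3 and 3 in Mko-3 cells did not pass the adjusted p. The median log2 fold change was -0.60 in Ako-3 and -0.61 in Mko-3 cells, against -0.01 for all genes in each. ATF3 had 45.8, 54.0 and 47.1 CPM in control, 12.1, 13.8 and 13.5 CPM in Ako-3 and 21.2, 21.8 and 20.5 CPM in Mko-3 libraries. Its log2 fold change was -1.92 in Ako-3 (edgeR adjusted p = 2.6e-12) and -1.24 in Mko-3 cells (edgeR adjusted p = 2.4e-10), and the groups did not overlap.

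The small MAF factors MAFF and MAFK, which lack an activation domain and pair with other bZIP proteins, fell by 1.23 and 1.18 on the log2 scale in Ako-3 cells and had log2 fold changes of -0.74 and -0.71 in Mko-3 cells. MAFA, with at most 19 counts in a library, was the remaining gene past both thresholds in Ako-3 cells (log2 fold change -2.25, and -1.71 in Mko-3 cells). BATF2 fell past both thresholds in Mko-3 cells (log2 fold change -1.06, and -0.24 in Ako-3 cells). FOSB, the remaining FOS family gene, was near the detection limit with at most 35 counts in a library, and its log2 fold change was -0.60 in Ako-3 (edgeR adjusted p = 0.17) and -1.23 in Mko-3 cells (edgeR adjusted p = 0.0061).

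Among 38 other immediate early genes, 33 were tested. In Ako-3 cells 5 passed both thresholds, all lower, against 5.0% of all genes lower, and the median log2 fold change was -0.44. By the adjusted p alone 24 were lower and 4 higher, against 24.4% and 25.5% of all genes. In Mko-3 cells 4 passed both thresholds lower and 1 higher, against 7.22% and 3.82% of all genes. By the adjusted p alone 19 were lower and 3 higher, with a median of -0.25, where 27.1% of all genes were lower and 26.9% higher. PPP1R15A, a phosphatase subunit that reverses the translational block of stressed cells, had 146, 123 and 129 CPM in control, 47.3, 54.5 and 46.5 CPM in Ako-3 and 52.1, 52.3 and 50.8 CPM in Mko-3 libraries. It fell by 1.45 and 1.39 on the log2 scale (edgeR adjusted p = 1.2e-11 and 2.9e-12). GADD45B, a stress-induced regulator of kinase signalling, fell by 1.12 and 1.22, and GEM, a small GTPase, by 1.16 and 1.06. NR4A1, an orphan nuclear receptor, had log2 fold changes of -1.29 in Ako-3 and -0.88 in Mko-3 cells. KLF4, a Krüppel-like factor, fell by 1.41 in Ako-3 and by 2.43 in Mko-3 cells, and the clones differed by -1.02 (Mko-3 minus Ako-3, edgeR adjusted p = 7.5e-06). The 1 gene higher past both thresholds was KLF2 in Mko-3 cells, named here after its value was seen, at 1.16 ± 0.0824 CPM in control and 3.08 ± 0.756 CPM in Mko-3 cells (log2 fold change 1.36). By the adjusted p alone, KLF2, NR4A2, SGK1 and NFKBIZ were higher in Ako-3 cells and KLF2, CCN1 and RHOB in Mko-3 cells, also listed after their values were seen.

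Of 25 kinases and factors upstream of these genes, such as the serum response factor SRF, its ETS partners and the ERK and JNK kinases, 24 were tested. None passed both thresholds in edgeR in either knockout, while 8 were lower and 4 higher in Ako-3 and 4 lower and 9 higher in Mko-3 cells by the adjusted p alone. These 12 and 13 of 24 lie at the shares of all genes that passed, 49.9% and 54.0%, and are no result about this list. An unadjusted p under 0.05 was found for 13 and 16 of them, and DESeq2 called 0 at both thresholds in each knockout. The median log2 fold change was -0.06 and -0.01. Those higher in Ako-3 cells included MAPK7 (0.74) and RPS6KA4 (0.56), and the 4 lower in Mko-3 cells were ELK4 (-0.37), BRAF (-0.51), KSR1 (-0.57) and MAPK3 (-0.54), given as log2 fold changes and named after their values were seen. MAPK3 encodes the kinase ERK1. SRF had log2 fold changes of 0.02 and 0.22 and ELK1, one of its partners, of -0.10 and 0.18.

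**Figure D4:**
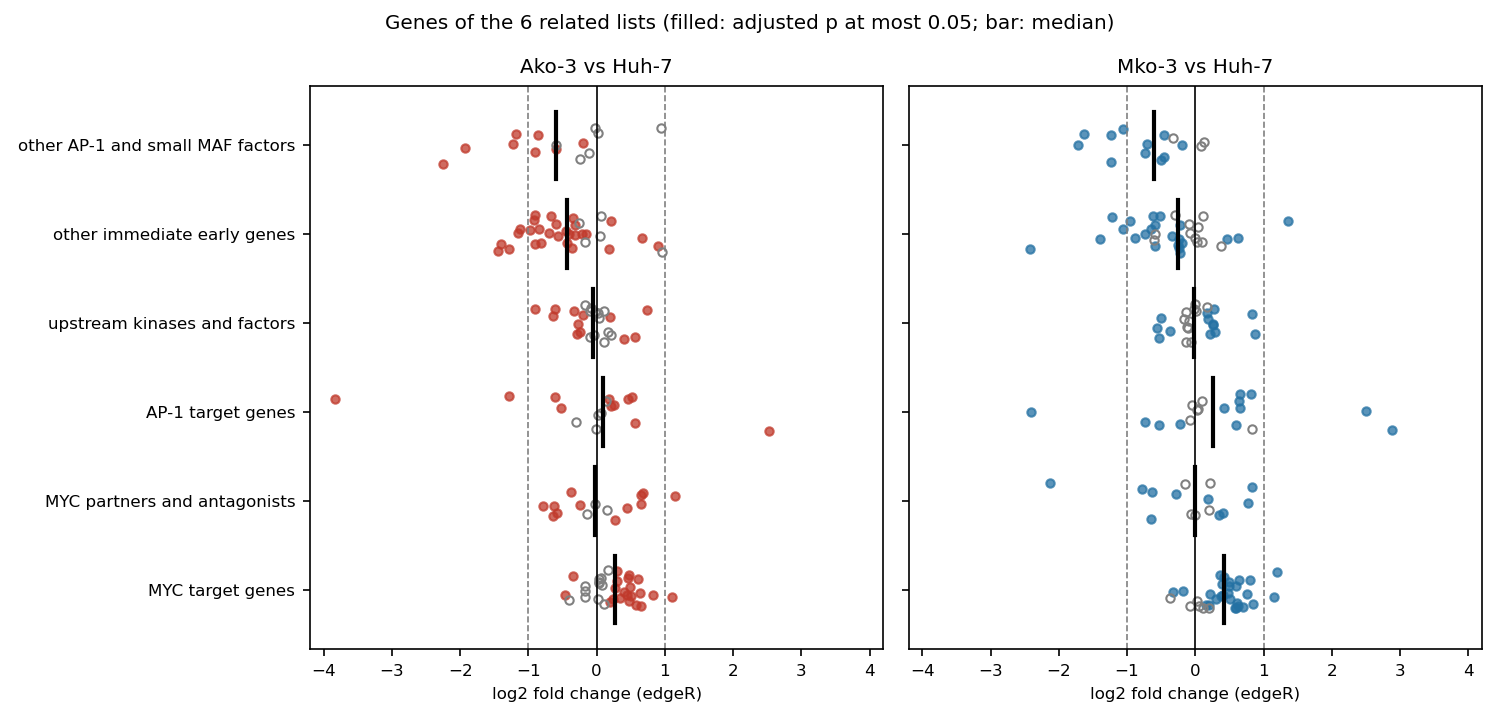
Log2 fold changes (horizontal axis, edgeR) of the tested genes of 6 related lists (rows) in Ako-3 on the left and Mko-3 cells on the right, against control; filled points have an adjusted p of at most 0.05, open points do not, black bars are list medians and dashed lines mark the threshold of 1. The medians of the other AP-1 and small MAF factors lie at -0.60 and -0.61, and those of the MYC target genes at 0.27 and 0.42.

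Genes described as targets of AP-1 did not move in one direction. Of 26 listed, 16 were tested in Ako-3 cells, of which 2 were lower and 1 higher past both thresholds, and 4 lower and 7 higher by the adjusted p alone. In Mko-3 cells 18 were tested, of which 1 was lower and 2 higher past both thresholds, and 4 lower and 8 higher by the adjusted p alone. Past both thresholds, 5.0% of all genes were lower and 3.52% higher in Ako-3 and 7.22% and 3.82% in Mko-3 cells. By the adjusted p, 24.4% of all genes were lower and 25.5% higher in Ako-3 and 27.1% and 26.9% in Mko-3 cells. The share of targets that were lower by the adjusted p lay near that of all genes, and the share that were higher lay above it. The median log2 fold change was 0.10 and 0.25, against -0.01 for all genes in each. CXCL8, which encodes the chemokine interleukin 8, had 124, 122 and 109 CPM in control, 49.7, 50.1 and 48.3 CPM in Ako-3 and 124, 122 and 122 CPM in Mko-3 libraries. It fell in Ako-3 cells (log2 fold change -1.29, edgeR adjusted p = 1.2e-11) and had a log2 fold change of 0.02 in Mko-3 cells (edgeR adjusted p = 0.82), and the clones differed by 1.31 (edgeR adjusted p = 9.6e-34).

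MT2A, a metallothionein, fell by 3.83 in Ako-3 and by 2.40 in Mko-3 cells. It belongs to a family of near-identical genes whose reads may be shared among copies, which was not tested. The 3 genes that rose past both thresholds in a knockout came from low levels. TIMP1, an inhibitor of matrix metalloproteinases, went from 0.552 ± 0.290 to 3.30 ± 1.34 CPM in Ako-3 cells (log2 fold change 2.52). SPP1, which encodes osteopontin, went from 0.639 ± 0.159 to 4.95 ± 0.247 CPM in Mko-3 cells (log2 fold change 2.89), and CD44, its receptor, from 0.375 ± 0.108 to 2.25 ± 0.726 CPM (log2 fold change 2.49).

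MYCN changed in the opposite direction to MYC in Ako-3 cells. This gene, which encodes a MYC protein best known from neuroblastoma and embryonic tissue, had 16.6, 19.7 and 16.3 CPM in control, 38.1, 37.7 and 42.9 CPM in Ako-3 and 20.8, 22.2 and 19.3 CPM in Mko-3 libraries. All Ako-3 libraries were above all others. MYCN rose in Ako-3 cells (log2 fold change 1.15, SE 0.10, edgeR adjusted p = 6.7e-09) and had a log2 fold change of 0.21 in Mko-3 cells (edgeR adjusted p = 0.091), and the clones differed by -0.93 (Mko-3 minus Ako-3, edgeR adjusted p = 8.1e-17). MYCL, the third relative, was chosen for mention after its values were seen, and its log2 fold change was -0.79 in Ako-3 and -0.78 in Mko-3 cells (edgeR adjusted p = 0.00023 and 0.00032).

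On the scale of FPKM, MYC held 75.1% ± 1.49 of the sum of the 3 MYC genes in control cells and 64.9% ± 3.20 in Mko-3 cells. In Ako-3 cells it held 42.6% ± 1.20 and MYCN 53.6% ± 1.40, so that MYCN transcript, at 14.97 ± 1.19 FPKM, was above MYC transcript, at 11.9 ± 1.04 FPKM, in each Ako-3 library. The sum of the 3 genes was 34.5 ± 3.87 FPKM in control, 27.9 ± 2.14 FPKM in Ako-3 and 25.5 ± 0.710 FPKM in Mko-3 cells.

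**Figure D5:**
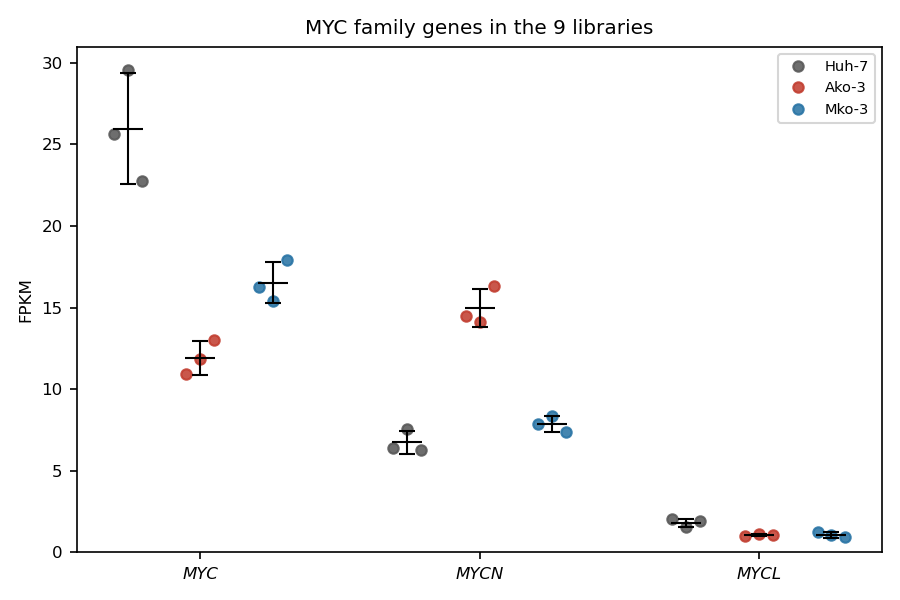
FPKM (vertical axis from 0) of MYC, MYCN and MYCL in the 3 control Huh-7, 3 Ako-3 and 3 Mko-3 libraries; points are libraries and bars the mean ± SD (n = 3). MYC was highest in control (25.95 FPKM) and MYCN in Ako-3 cells (14.97 FPKM), where it exceeded MYC.

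Of the 15 MYC partners and antagonists, 1 was higher past both thresholds in Ako-3 cells, which was MYCN, and 1 was lower in Mko-3 cells, which was MLXIPL, the carbohydrate-responsive factor ChREBP (log2 fold change -2.13, edgeR adjusted p = 7.3e-13, and -0.64 in Ako-3 cells). Past both thresholds, 3.52% of all genes were higher in Ako-3 and 7.22% lower in Mko-3 cells. By the adjusted p alone 6 of the 15 were lower and 6 higher in Ako-3 and 5 lower and 5 higher in Mko-3 cells (49.9% and 54.0% of all genes passed). The median log2 fold changes of the 15 were -0.02 and -0.01. Of 33 genes described as MYC targets, most of which act in ribosome production and metabolism, 2 were lower and 19 higher by the adjusted p alone in Ako-3 cells and 2 lower and 25 higher in Mko-3 cells, where 24.4% and 27.1% of all genes were lower and 25.5% and 26.9% higher. Their median log2 fold change was 0.27 and 0.42. UTP20, a ribosome assembly factor, rose past both thresholds in Ako-3 and Mko-3 cells (log2 fold changes 1.11 and 1.19), and RRS1, another, in Mko-3 cells (1.15, and 0.83 in Ako-3 cells). The targets lower by the adjusted p alone were DDX21 and WDR43 in Ako-3 cells and DDX21 and DNPH1 in Mko-3 cells, named after their values were seen.

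Between the clones, the related lists also differed gene by gene. Of the other AP-1 and small MAF factors, 0 of 13 tested passed both thresholds in edgeR, and 4 (ATF3, MAFF, MAFG and MAFK) were higher and 3, among them BATF2 and MAF, lower in Mko-3 than in Ako-3 cells by the adjusted p alone. An unadjusted p under 0.05 was found for 8, and DESeq2 called 0 at both thresholds. ATF3 differed by 0.68 and BATF2 by -0.82 (Mko-3 minus Ako-3). By the adjusted p alone, 21.1% of all genes were higher and 20.6% lower in Mko-3 than in Ako-3 cells. Of the 33 other immediate early genes tested, 13 were higher and 8 lower by this criterion, with a median log2 difference of 0.09. Of the 18 AP-1 targets tested, 4 were higher past both thresholds in Mko-3 cells, CXCL8, CD44, SPP1 and MT2A, and 1, TIMP1, was lower (-1.69). Of all genes, 2.26% were higher and 3.47% lower past both thresholds. Of the MYC targets, 19 were higher and 1, DNPH1, lower by the adjusted p alone, with a median log2 difference of 0.15.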

How the data were processed

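RNA was sequenced from poly(A)-selected libraries of Huh-7, Ako-3 and Mko-3 cells, 3 per group, and the libraries were grouped by the labels. The authors aligned reads to hg38 with HISAT2 2.0.5, counted them on genes with featureCounts 1.5.0-p3 (per the labels' processing notes) and deposited raw counts and FPKM. The deposited FPKM values equal the counts divided by gene length and a constant per library. The annotation release and the strand setting of the counting are not given in the sources used here.

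Counts of all genes were tested with edgeR 4.0.16 in R 4.3.3 (TMM, filterByExpr with a minimum count of 10, robust quasi-likelihood F test, Benjamini-Hochberg adjustment over all genes tested), fitting each comparison on its own 6 libraries. The 2 thresholds were a log2 fold change of 1 in either direction and an adjusted p of at most 0.05. CPM used TMM factors over the 9 libraries. Alternatives were DESeq2 1.42.0, other size factors and filters, all 9 libraries in one fit, a replicate block, limma 3.58.1 on log2(FPKM + 1) and log2(FPKM + 0.1), and leaving out each library. A group with at most 3 counts in every library was taken as at the floor. The fitting was tested on simulated data.

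The 10 genes and the 6 related lists were chosen with earlier results of these data known. Named genes were the 10 members, APOB and MTTP, up to 3 genes per list and comparison past both thresholds with the smallest adjusted p, and the 2 genes nearest each member in Pearson's r. The labels do not say whether replicates came from separate cultures, so p-values measure the spread between libraries of one clone or line, which may be technical. Values of some single genes of the lists are not reported here.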

Additional observations from a re-analysis of the deposited data

Results flagged for a closer look

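For 5 of the 9 tested genes the effect differed between the clones in the direct test of Mko-3 against Ako-3 cells (quasi-likelihood test of edgeR, adjusted by Benjamini-Hochberg). Of all 15528 genes, 41.6% passed that test, 21.1% higher and 20.6% lower in Mko-3 cells. All Mko-3 libraries lay above all Ako-3 libraries for 26.1% of all genes. The log2 difference, Mko-3 minus Ako-3, was 0.47 for JUN, 0.44 for JUNB, 0.44 for FOSL2, 0.46 for MYC and 0.69 for IER3, each with 3 of 3 Mko-3 libraries above all Ako-3 libraries. For JUN, JUNB, FOSL2 and MYC both clones were below control cells and Ako-3 further so, and for IER3 the clones lay on opposite sides of the control libraries. The cause was not tested, and as each knockout is 1 clone, gene and clone cannot be told apart.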

How the results depend on the processing

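The fold changes of JUN and MYC in Ako-3 cells passed both thresholds under every alternative run, with log2 fold changes of -1.32 to -1.24 and -1.21 to -1.02 on leaving out 1 library. The number of members past both thresholds in Ako-3 cells was 2 with limma on log2(FPKM + 1), where JUNB was lost, and 2 to 4 on leaving out 1 library. It stayed at 0 in Mko-3 cells, and in Mko-3 against Ako-3 cells it was 0 to 1, the 1 being EGR1 without Ako-3 replicate 1. Values near 0 changed sign. FOS in Ako-3 cells was -0.0053 with at least 10 counts required in every library, and ran from -0.076 to 0.12 on leaving out 1 library, with control replicate 2, Ako-3 replicate 1 or Ako-3 replicate 2 turning its sign. On leaving out 1 library EGR1 in Mko-3 cells ran from -0.17 to 0.081, turned by control replicate 2 and Mko-3 replicate 3, and IER2 between the clones from -0.023 to 0.16, turned by Ako-3 replicate 1. The calls over all genes numbered 1345, 1739 and 890 (Ako-3, Mko-3, and Mko-3 against Ako-3), 841, 1113 and 511 with at least 10 counts in every library, and 317, 429 and 200 with limma on log2(FPKM + 1), whose pseudocount compresses low genes. The share of called genes that were higher was 41.3% in Ako-3 and 34.6% in Mko-3 cells, and 57.4% and 48.5% with limma on log2(FPKM + 1). The labels give replicate numbers without stating a pairing. Same-numbered libraries had correlations of their deviations from the group means of -0.28 to 0.21, and differently numbered libraries of -0.22 to 0.32. Deviations within a group sum to 0, so these values cannot show whether a pairing exists. With replicate number as a block, 3, 0 and 0 members passed both thresholds and 7, 6 and 5 the adjusted p alone (6, 6 and 5 without it), and 1336, 1730 and 899 genes were called. Counts per library were low for EGR1, at 16 to 44, and for FOSL1, at 0 to 9. The part of depth in the spread of EGR1 was not tested.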
